A study of Mus musculus with 16 samples.

Results

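The loci described here belong to 5 mouse genes that write, copy or remove DNA methylation: Tet1, Uhrf1, Dnmt1, Dnmt3b and Dnmt3l. The genes were chosen with earlier results of these data known. Their sites were chosen by position and not by any measured value. They were every CpG site that a library lists inside a fixed GRCm39 window around each gene, divided into tiles of 1 kb. The windows spanned 109 kb of chromosome 10 for Tet1, 24 kb of chromosome 17 for Uhrf1, 57 kb of chromosome 9 for Dnmt1, 42 kb of chromosome 2 for Dnmt3b and 26 kb of chromosome 10 for Dnmt3l. In these 258 kb, 87 tiles held a listed site, against 316230 tiles in the whole series. They held 1105 listed sites at 630 CpGs, since the strands of a CpG are listed apart. A tile was tested where at least 3 of its sites had 10 or more reads in all 16 libraries, which left 29 tiles: 14 of 29 for Tet1, 5 of 12 for Uhrf1, 5 of 22 for Dnmt1, 3 of 16 for Dnmt3b and 2 of 8 for Dnmt3l. The other 58 tiles were not tested, and they enter no count of calls.

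Methylation of cytosine at CpG is copied at replication by DNMT1, the maintenance methyltransferase, which UHRF1 brings to newly copied DNA by binding CpGs methylated on the parental strand alone. DNMT3B sets new methylation, and DNMT3L, which has no methyltransferase activity of its own, stimulates it in germ cells and pluripotent cells. TET1 is a dioxygenase that oxidises methylcytosine, a first step of its removal. Tet1, Dnmt3b and Dnmt3l are known as genes of pluripotent cells that fibroblasts express little or not at all, whereas Dnmt1 and Uhrf1 are used by dividing cells of most kinds. Methylation of these genes' own DNA is measured here, not their expression or their proteins' activity.

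Reduced representation bisulfite sequencing (RRBS), which reads methylation near MspI cut sites, was run on 16 libraries in 8 groups of 2. Mouse embryonic fibroblasts (MEFs) of strain 129XOG2, from E13.5 embryos and at low passage, were put in a chemical reprogramming medium and collected at D2, D4, D6, D8, D10 and D12. The induced pluripotent stem cells (iPSCs) had the same strain label, grew on feeder cells with LIF, CHIR99021 and PD0325901, and were sequenced beside them. D0 was the untreated MEFs. OG2 mice carry a fluorescent reporter driven by Pou5f1 (Oct4) sequence, shared by all groups. The medium's agents, the culture each iPSC library came from and the removal of feeders before extraction are not stated by the labels. Feeder DNA was not tested for. Coverage summed over the listed sites lay between 39011213 and 107834007 per library, where a read counts at each site it covers. Replicates were correlated at Pearson r between 0.6 in D12 and 0.964 in D0 over 873038 common sites, a description across sites. Over the 94337 tested tiles of the genome the median level was 63.5% and 63.3% in the iPSC libraries, 15.5% and 15.4% in D12 and 65.6% and 65.7% in D0. The groups have 2 libraries each, so an exact permutation test of any single value cannot go below p = 0.33, and the calls come from edgeR's quasi-likelihood fit over all tested tiles. Labels do not say whether replicates are separate cultures, so the replicate spread against which the p-values set a difference may be technical. A tile was called at a Benjamini-Hochberg adjusted p under 0.05 and a difference of at least 10 percentage points.

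No annotation of GRCm39 was used here, so start sites were located by laying the 300-base RefSeq promoter sequences of build GRCm38.p6 along the listed CpGs. This placed Tet1, with 12 of its 17 CpGs on listed CpGs, and a start of Uhrf1, with 10 of 12. An offset counted only where every listed CpG in its span fell on a CpG of the sequence. Under that rule no other offset on either chromosome matched as many as 5. The Tet1 sequence fell at chr10:62723054-62723353 on the minus strand, which puts its start at 62723103, and the Uhrf1 sequence at chr17:56610087-56610386 on the plus strand, with its start at 56610337. The promoters of Dnmt1, Dnmt3b and Dnmt3l and a further start of Uhrf1 were not placed, so distances from a start are given for Tet1 and Uhrf1 alone, and exons and introns are not given. Both placed sequences are shown 5′ to 3′ because distances in Tet1 and Uhrf1 are measured from them. Capitals mark the CpGs listed in at least 1 library, and the last 50 bases follow the start.
Tet1: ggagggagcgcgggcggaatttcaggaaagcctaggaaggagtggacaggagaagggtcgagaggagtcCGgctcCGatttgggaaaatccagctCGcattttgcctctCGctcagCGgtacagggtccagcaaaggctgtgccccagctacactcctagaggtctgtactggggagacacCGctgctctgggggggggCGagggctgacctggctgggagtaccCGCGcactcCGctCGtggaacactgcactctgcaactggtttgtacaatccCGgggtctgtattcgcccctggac
Uhrf1: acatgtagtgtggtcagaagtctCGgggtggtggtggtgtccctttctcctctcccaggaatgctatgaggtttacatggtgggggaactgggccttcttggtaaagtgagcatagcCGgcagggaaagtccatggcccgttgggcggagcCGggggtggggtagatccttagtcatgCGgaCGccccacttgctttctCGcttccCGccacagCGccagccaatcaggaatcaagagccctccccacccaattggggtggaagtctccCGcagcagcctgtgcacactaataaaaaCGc

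With reads pooled over the common sites of its window, each of the 5 loci was lower in both D12 libraries than in both D0 libraries, and lower in both iPSC libraries than in both D0 libraries. The gap between iPSCs and D0 was widest for Tet1 and Uhrf1; these window averages are a description, with no test. Tet1, with 153 common sites, measured 58.9% and 59.8% at D0, 55.9% and 59.1% at D2, 57.1% and 58.5% at D4 and 47.6% and 45.6% at D6. It then measured 36.1% and 36.6% at D8, 24.1% and 25.3% at D10, 17.4% and 14.1% at D12, and 41.9% and 38.9% in iPSCs. From D6 on the Tet1 libraries of each day lay below those of the day before, and both iPSC libraries lay between those of D6 and D8.

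Uhrf1, with 59 common sites, averaged 63.2% ± 0.32 on D0, 52.1% ± 5.8 on D2, 52.9% ± 6.2 on D4, 41.9% ± 1.4 on D6, 33.8% ± 0.09 on D8, 24.3% ± 1.6 on D10, 23.1% ± 1.0 on D12 and 47.7% ± 2.5 in iPSC libraries (SD, n = 2). Dnmt1, with 33 sites, averaged 77.8% ± 0.015 on D0, 76.9% ± 0.78 on D2, 81.5% ± 2.4 on D4, 68.2% ± 0.35 on D6, 45.2% ± 7.5 on D8, 31.9% ± 0.35 on D10, 24.1% ± 2.6 on D12 and 75.1% ± 2.1 in iPSC libraries. The iPSC libraries of Dnmt1, at 76.6% and 73.6%, sat just under its D0 libraries, both at 77.8%. Dnmt3b, with 23 sites, averaged 33.3% ± 2.3 in iPSCs, 14.5% ± 0.23 at D12 and 40.9% ± 1.6 at D0. Dnmt3l, with 20 sites, averaged 42.5% ± 2.3 in iPSCs, 21.7% ± 0.55 at D12 and 50.8% ± 4.0 at D0. These averages mix tiles that behaved differently, which the map of all tested tiles by library shows. Reads are pooled, so an average also depends on how each library's reads fall among the sites. At the tested tiles of Dnmt3b, iPSCs differed from D0 by -7.44 to -0.834 points.

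**Figure D1:**
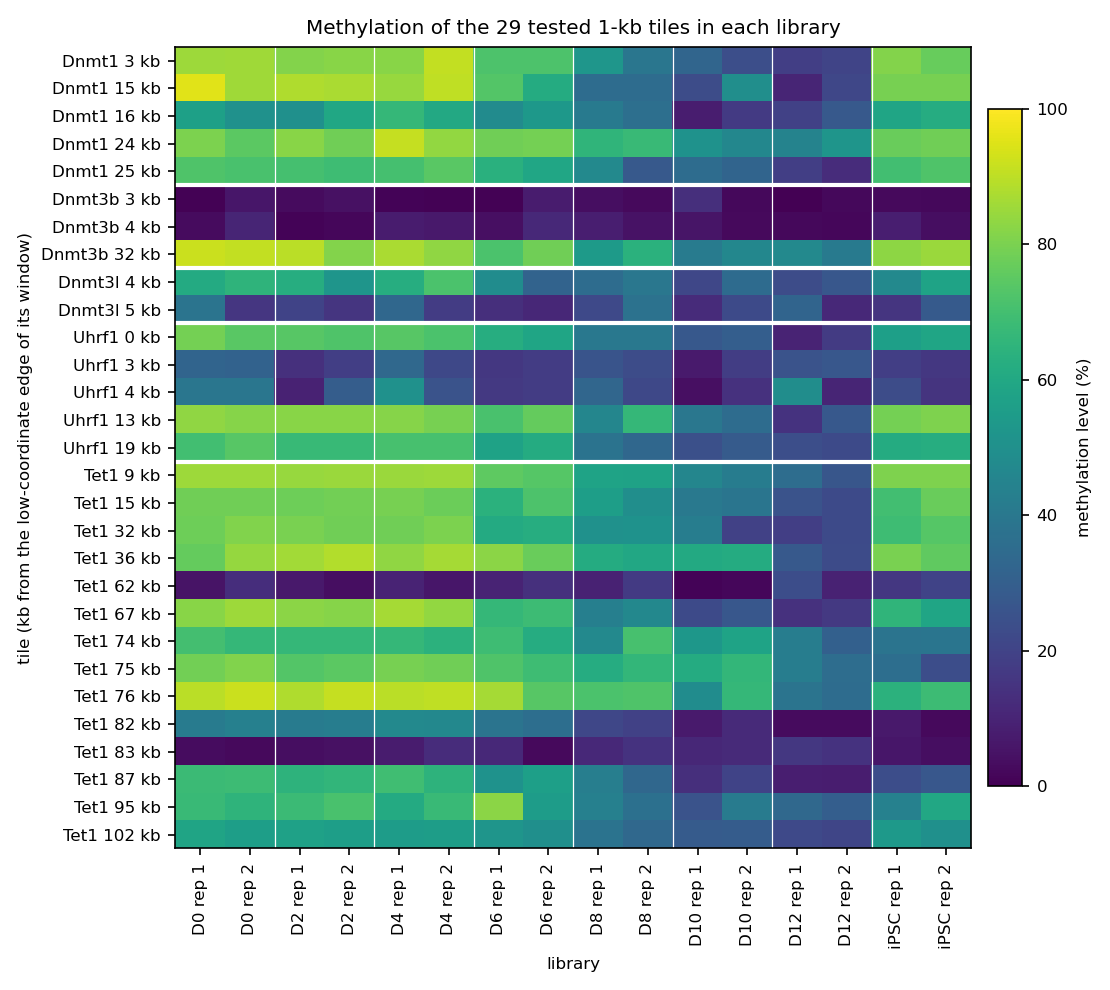
Methylation level (colour, %) of the 29 tested 1-kb tiles (rows, named by gene and by kb from the low-coordinate edge of the window) in the 16 libraries (columns, D0 to D12 and then iPSC). Most rows are bright up to D4, dark at D12 and bright in iPSCs, the first 2 Dnmt3b rows stay dark in every library, and the Tet1 rows at 74, 75, 82 and 87 kb are darker in iPSCs than at D0.

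Set against D0, iPSCs were lower at 7 of the 29 tiles and higher at none, where 9.44% of all tested tiles were called lower and 4.04% higher. Of the 7 tiles, 6 lay in the Tet1 window, where 14 tiles were tested, and 1 in the Uhrf1 window, where 5 were. No tile of Dnmt1, Dnmt3b or Dnmt3l was called, and 11 of the 29 had an unadjusted p under 0.05 in edgeR's fit. The share of all tested tiles under that p was not computed, so the count has no background beside it. A quasi-binomial model also gave 7 lower and 0 higher, where 10.1% and 5.23% of all tested tiles were. The median difference over the 29 tiles was -7.44 points, beside -1.76 points over all tested tiles. Of the 29 tiles 25 lay below 0, and the share of all tested tiles below 0 was not computed. By gene the median difference was -11.3 points for Tet1, -14.5 for Uhrf1, -0.692 for Dnmt1, -0.978 for Dnmt3b and -7.88 for Dnmt3l.

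**Figure D2:**
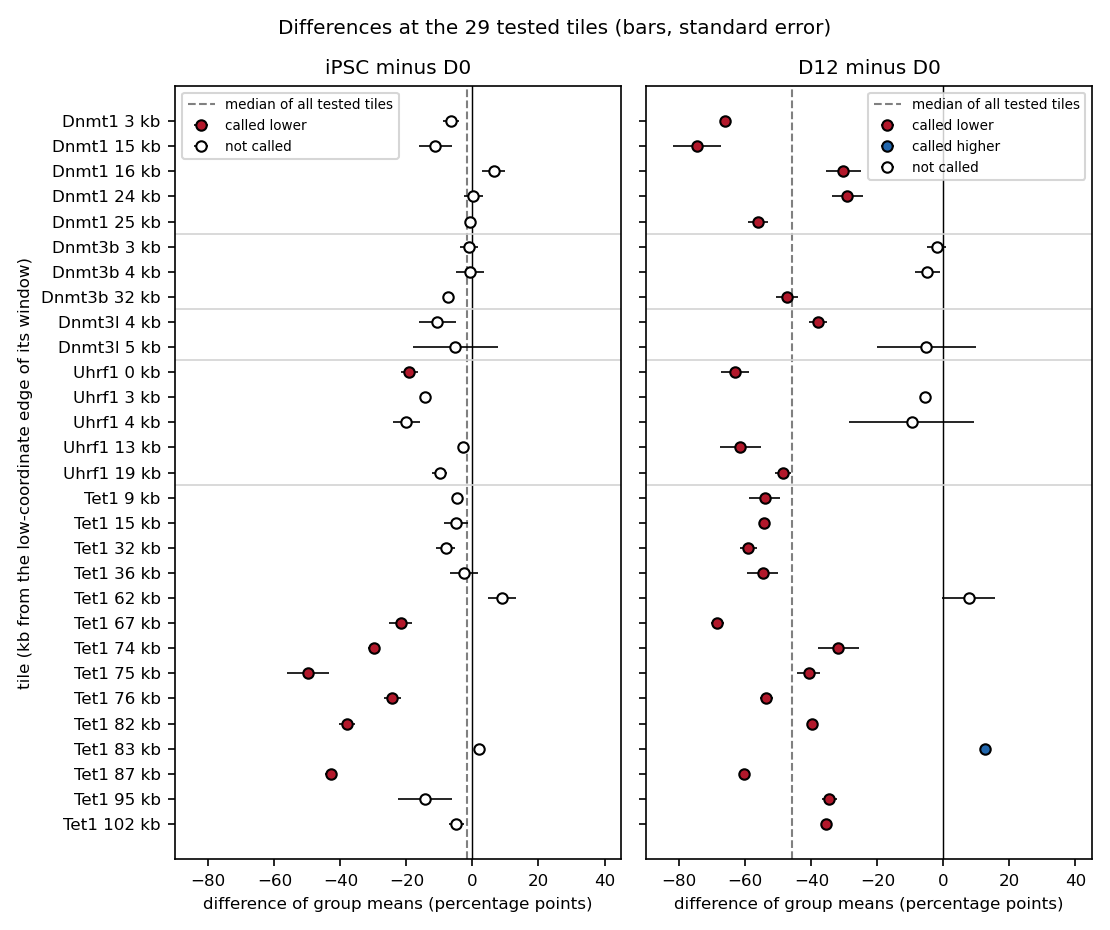
Difference of group means in percentage points (x axis; bars, standard error over 2 libraries a group) at the 29 tested tiles (rows, in the order of the map of levels by library), with iPSC minus D0 on the left and D12 minus D0 on the right. Filled points passed the call, and the dashed line is the median of all tested tiles, -1.76 points on the left and -45.9 on the right; the 6 called Tet1 tiles on the left lie between -49.9 and -21.8 points.

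The 6 tiles of Tet1 called lower in iPSCs on sites common to all 16 libraries lay between 3.4 kb upstream and 17 kb downstream of the placed start. On the sites shared by the iPSC and D0 libraries, with those libraries alone in the fit, tiles at 52 and 60 kb were called lower as well, so this placing rests on which sites were tested. Nearest to the start, chr10:62721001-62722000, centred 1.6 kb downstream, measured 6.66% and 2.48% in iPSCs, 3.04% and 2.75% at D12 and 41.6% and 43.6% at D0. Both iPSC libraries were far below D0, replicate 2 at the level of the D12 libraries and replicate 1 above it. The difference from D0 was -38.0 ± 2.3 points (SE; adjusted p = 7.47e-05), and that from D12 was 1.67 ± 2.1 points (adjusted p = 0.228), so a difference between iPSCs and D12 was not detected. Over the days this tile averaged 42.6% at D0, 42.0% at D2, 46.9% at D4 and 37.4% at D6, then 20.4% at D8, 9.56% at D10 and 2.89% at D12.

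The 16 common sites of that tile showed where the D0 methylation sat. A site 1989 bases downstream of the start measured 10.98% and 3.61% in iPSCs, against 80.8% and 78.0% at D0. At 1871 bases a site measured 4.71% and 1.73% in iPSCs, against 46.2% and 47.1% at D0. At 1761 bases the values were 4.85% and 1.06% in iPSCs, against 33.8% and 36.4% at D0, and at 1741 bases they were 12.3% and 1.01% in iPSCs, against 5.29% and 8.43% at D0. The D0 level thus dropped, unevenly, along the deeply read stretch toward the start, and the iPSC level stayed low along all of it. Each of the 4 had at least 164 reads in every library, and both D0 libraries showed the same drop. Sites from 1306 to 1113 bases, at 12 to 109 reads, lay at or below 16.4% in both D0 libraries. In iPSCs none of the 16 sites of the tile exceeded 15.0%, and the stretch that was methylated at D0 read as low as the sites beside it.

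**Figure D3:**
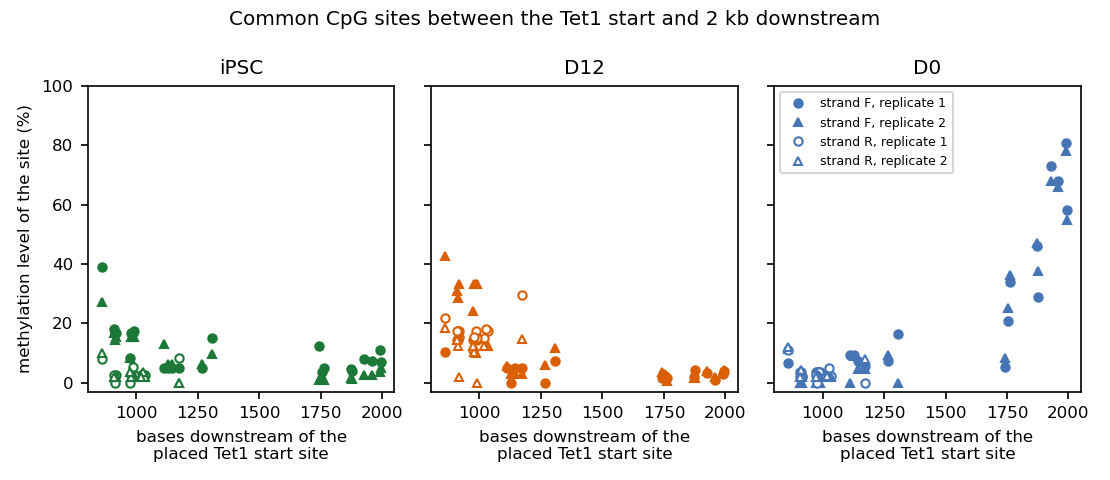
Level (y axis, %) of each common CpG site against its distance downstream of the placed Tet1 start (x axis, bases) in iPSC, D12 and D0 libraries; circles are replicate 1, triangles replicate 2, filled points strand F and open points strand R. The sites from 1741 bases on stay at or below 12.3% in iPSCs and 4.46% at D12, while at D0 they climb to 80.8%.

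Upstream of the start the nearest tested tile was intermediate in iPSCs. At chr10:62726001-62727000, centred 3.4 kb upstream, the level was 23.8% and 27.3% in iPSCs, 8.34% and 8.08% at D12 and 68.4% and 68.7% at D0. The iPSC libraries lay between the other groups, with a difference of -43.0 ± 1.8 points from D0 (adjusted p = 0.000128) and of 17.3 ± 1.7 points from D12 (adjusted p = 6.89e-05). The next tested tiles outward, centred 11 and 18 kb upstream, differed from D0 by -14.5 ± 8.2 and -4.88 ± 2.3 points in iPSCs and were not called (adjusted p = 0.39 and 0.473). The last value was -10.4 points without the lower strand of CpGs whose strands differed by 40 points or more.

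Downstream, 3 adjoining tiles between 7.6 and 9.6 kb from the start were called lower. The tile with the largest difference, chr10:62714001-62715000 at 8.6 kb, measured 36.1% and 23.8% in iPSCs, 42.3% and 35.8% at D12 and 78.7% and 81.0% at D0. iPSCs differed from D0 by -49.9 ± 6.3 points (adjusted p = 6.82e-05) and from D12 by -9.13 ± 7.0 points, which was not called (adjusted p = 0.0947). The direction of the second difference was not settled. Without iPSC replicate 1 it was -15.3 points and was called (adjusted p = 0.0156), while over the 10 sites shared by the iPSC and D12 libraries it was 1.58 points (adjusted p = 0.855). Its mean was 64.2% at D8 and 63.9% at D10, and the neighbouring tile at 7.6 kb averaged 72.1% at D8 and 57.6% at D10.

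The tile at 7.6 kb, chr10:62715001-62716000, was among the most methylated of the window at D0, and in iPSCs it lay between D12 and D0. It measured 64.2% and 68.7% in iPSCs, 38.6% and 35.5% at D12 and 89.6% and 92.0% at D0, a difference from D0 of -24.3 ± 2.6 points (adjusted p = 0.00319). At 9.6 kb, chr10:62713001-62714000 had 3 common sites and 32 to 138 reads a library, summed over the sites. It measured 38.5% and 38.9% in iPSCs, 42.4% and 30.7% at D12 and 70.3% and 66.7% at D0, a difference of -29.8 ± 1.8 points (adjusted p = 0.0277). That call was lost when any of the 4 libraries was left out (adjusted p between 0.0879 and 0.185).

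Farther in, chr10:62706001-62707000 at 17 kb had the largest difference between D12 and D0 among the tested Tet1 tiles. It measured 65.2% and 59.0% in iPSCs, 14.2% and 16.5% at D12 and 82.3% and 85.5% at D0. D12 differed from D0 by -68.5 ± 2.0 points (adjusted p = 6.54e-08) and iPSCs by -21.8 ± 3.5 points (adjusted p = 0.00104), and the iPSC libraries lay nearer to D0 than to D12. A CpG-rich tile at 22 kb, chr10:62701001-62702000, was low throughout, at 16.1% and 20.1% in iPSCs, 23.8% and 9.76% at D12 and 5.38% and 13.0% at D0, and was called in none of the 3 comparisons among iPSCs, D12 and D0 (adjusted p between 0.151 and 0.741).

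Far from the start the tested Tet1 tiles were lower at D12 than at D0 and higher in iPSCs than at D12, as were most tiles of the genome. The 4 tested tiles between 48 and 75 kb measured 69.1% to 80.8% in iPSCs, 18.6% to 35.9% at D12 and 76.5% to 85.5% at D0. All 4 were called lower at D12 and higher in iPSCs than at D12, and none was called between iPSCs and D0 on the common sites, with differences of -8.13 to -2.48 points. Over all tested tiles 82.7% were lower at D12, 79.8% higher in iPSCs than at D12 and 9.44% lower in iPSCs than at D0, so the counts of these 4 tiles are near the background. Over 12 sites shared by the iPSC and D0 libraries, 1 of them, chr10:62671001-62672000 at 52 kb, measured 68.7% and 69.2% in iPSCs and 79.4% and 80.9% at D0 and was called lower (difference -11.2 points, adjusted p = 0.0447). A further tile in this span, chr10:62663001-62664000 at 60 kb, had 1 common site and could not enter the main test. Over 5 sites shared by the iPSC and D0 libraries it measured 53.6% and 58.5% in iPSCs and 77.7% and 82.0% at D0, a called difference of -23.8 points (adjusted p = 0.0285). A lower level in iPSCs than at D0 was thus also measured far from the start. Of the 4 tested tiles, chr10:62675001-62676000 had the largest difference between iPSCs and D12, 52.3 ± 3.3 points (adjusted p = 1.53e-06), with 79.9% and 75.7% in iPSCs, 28.0% and 23.0% at D12 and 76.5% and 84.1% at D0. Whether the iPSC to D0 differences near the start differ from those of the far tiles was not tested as a difference of its own, and the plot of Tet1 tiles by distance shows the tested tiles of both kinds.

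**Figure D4:**
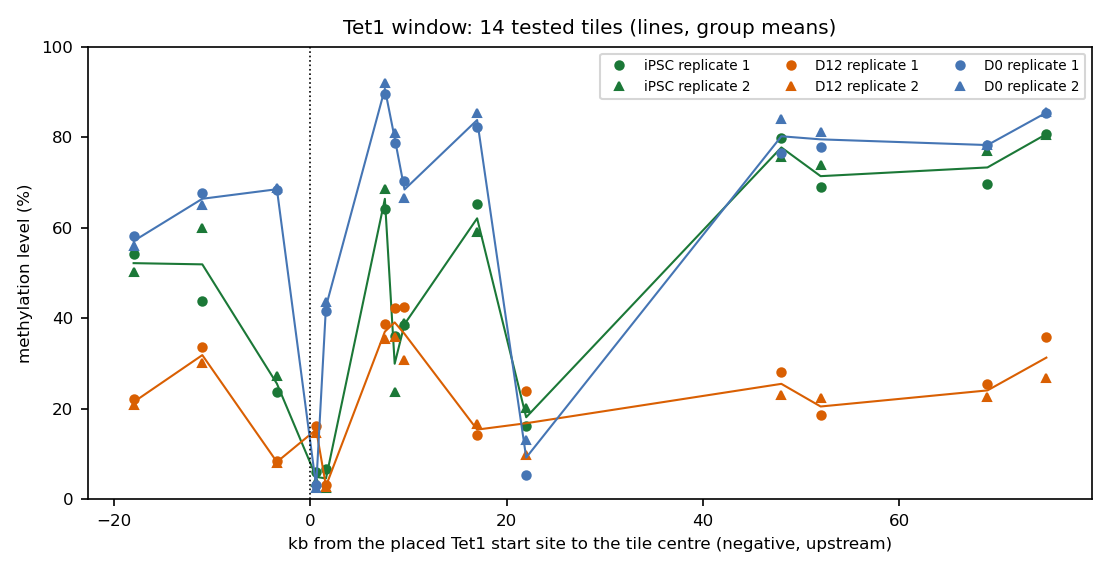
Level (y axis, %) of the 14 tested Tet1 tiles against the distance of the tile's centre from the placed start (x axis, kb; negative is upstream), for iPSC, D12 and D0; points are libraries and lines join group means across unmeasured gaps. iPSC points lie with or near the D12 points at 1.6, 8.6 and 9.6 kb, between the groups at -3.4, 7.6 and 17 kb, under the D0 points from 52 to 75 kb, and overlap them at 48 kb.

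The tested tile closest to the Tet1 start was higher at D12 than at D0. The start itself lies in the next tile, which had no common site. The tested tile chr10:62722001-62723000, centred 0.6 kb downstream and with 30 listed CpGs the CpG-richest of the window, measured 3.2% and 2.43% at D0, 3.60% and 4.38% at D2, 7.53% and 12.8% at D4, 11.7% and 2.70% at D6. It measured 11.7% and 14.8% at D8, 11.2% and 11.8% at D10, 16.2% and 14.6% at D12 and 6.01% and 3.8% in iPSCs. D12 was 12.6 ± 0.89 points over D0 (adjusted p = 0.00119), which made it the 1 tile of the 29 called higher, where 0.66% of all tested tiles were. iPSCs stood 2.09 ± 1.2 points from D0 (adjusted p = 0.494). iPSCs were below D12 by a difference of -10.5 ± 1.4 points (adjusted p = 0.0115), the 1 tile called lower in that comparison, where 1.49% of all tested tiles were. That call was lost without iPSC replicate 2 (difference -9.36, adjusted p = 0.0797) and without D12 replicate 1, where the difference of -9.66 points fell short of 10.

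The strands of this tile did not read alike. On strand R, with 11 sites, D12 measured 16.5% and 10.1% and D0 3.14% and 3.03%. On strand F, with 8 sites, D12 measured 13.9% and 32.2% and D0 3.41% and 1.31%. The D12 libraries thus lay above the D0 libraries on both strands. Replicates of strand F also lay apart at D2 (0.0% and 13.2%), D6 (24.8% and 3.59%) and D8 (39.39% and 27.25%). They were closer at D4 (11.3% and 10.0%) and D10 (25.2% and 30.2%). How many DNA molecules these strand values rest on was not tested. iPSCs measured 18.0% and 15.8% on strand F and 2.79% and 2.59% on strand R. The lower level in iPSCs than at D12 was thus not seen on both strands. On strand R both iPSC libraries lay below both D12 libraries, while on strand F they lay between them and above both D0 libraries. The strands were not tested apart. The placed promoter itself, just upstream, had no site common to all 16 libraries. Reads pooled over its 12 listed sites gave 30.5% and 18.1% at D12 and 12.2% and 0.0% at D0, and iPSCs gave 12.5% over 8 sites and 0.0% over 2. Fitted on the sites shared by the D12 and D0 libraries, that tile differed by 18.2 points (adjusted p = 0.15).

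At Uhrf1 3 of 5 tested tiles, all away from the start, were called lower at D12 than at D0 (82.7% of all tested tiles were), and those 3 were called higher in iPSCs than at D12 (79.8% of all tested tiles). The tile chr17:56607001-56608000, centred 2.8 kb upstream, measured 56.6% and 58.8% in iPSCs, 10.1% and 17.3% at D12 and 79.1% and 74.5% at D0. Its differences were -63.1 ± 4.3 points for D12 from D0 (adjusted p = 1.79e-07) and -19.1 ± 2.6 points for iPSCs from D0 (adjusted p = 0.0107). The second call was lost without iPSC replicate 1, iPSC replicate 2 or D0 replicate 1 (adjusted p = 0.0735, 0.0511 and 0.105). At 10 kb downstream, chr17:56620001-56621000 measured 78.9% and 80.6% in iPSCs, 14.8% and 27.4% at D12 and 83.2% and 82.0% at D0. It was higher in iPSCs than at D12 by 58.7 ± 6.3 points (adjusted p = 5.66e-06) and stood -2.84 ± 1.0 points from D0 (adjusted p = 0.798).

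The CpG-rich tiles that begin at the Uhrf1 start were at intermediate levels and were called in none of the 3 comparisons on the common sites. None of these sites lay in the placed promoter, which had no site listed in any iPSC, D12 or D0 library. The first, chr17:56610001-56611000, with 31 listed CpGs, measured 18.6% and 16.2% in iPSCs, 25.7% and 27.1% at D12 and 32.4% and 31.4% at D0. iPSCs lay below D0 in both libraries, by a difference of -14.5 ± 1.3 points that was not called with all groups in the fit (adjusted p = 0.117). The difference was called where the fit held the iPSC and D0 libraries alone (adjusted p = 0.0236). The next tile, chr17:56611001-56612000, measured 23.3% and 15.0% in iPSCs, 48.8% and 10.3% at D12 and 39.3% and 39.2% at D0, with D12 replicates farther apart than any pair of group means. Its difference between iPSCs and D0, -20.1 ± 4.1 points, was not called with all groups in the fit (adjusted p = 0.406) and was called in the fit of the iPSC and D0 libraries and their shared sites (adjusted p = 0.0492).

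In the first Uhrf1 tile strands and replicates differed. The SD over the sites of a strand within a library ran between 0.0 and 11 points, with the widest spread on strand F of D12 replicate 1, where sites lay between 14.3% and 50.9%. The 11 sites of strand F, pooled, measured 22.9% and 14.6% in iPSCs, 41.7% and 9.77% at D12 and 36.7% and 37.6% at D0. The 8 sites of strand R measured 0.0% and 19.1% in iPSCs, 8.45% and 48.4% at D12 and 25.9% and 23.2% at D0. D12 replicate 1 was thus high on strand F and low on strand R, and D12 replicate 2 the reverse, so that their tile means nearly coincide. In iPSC replicate 1 all 8 sites of strand R read 0.0%, and in D12 replicate 2 they lay between 41.9% and 50.0%. The labels describe 15 cycles of PCR and no molecular identifiers, and how many DNA molecules these strand values rest on was not tested. The calls at D10, when both of these tiles were lower than at D0 (differences -19.2 and -30.1 points, adjusted p = 0.00272 and 0.0273), were made on the same sites.

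**Figure D5:**
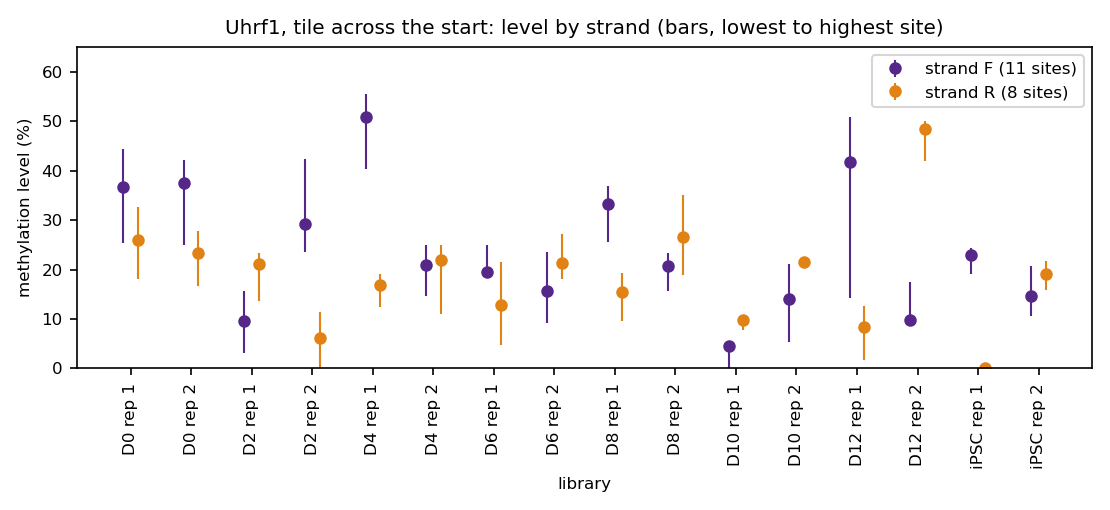
Level (y axis, %) of the tile across the Uhrf1 start in each library (x axis), for the 11 common sites of strand F and the 8 of strand R. None of these sites lies in the placed promoter. Points are reads pooled over sites and bars run from the lowest to the highest site. Strands separate in opposite directions in the D12 libraries, at 41.7% and 8.45% in replicate 1 and 9.77% and 48.4% in replicate 2, and the longest bar, from 14.3% to 50.9%, is strand F of D12 replicate 1.

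At Dnmt1 all 5 tested tiles were called lower at D12 than at D0, where 82.7% of all tested tiles were. All 5 were called higher in iPSCs than at D12, where 79.8% of all tested tiles were, and none was called between iPSCs and D0. With 5 tiles these counts are near the shares over all tiles. The tile chr9:20832001-20833000 had the largest loss of the 29 tiles, over 3 common sites and 39 to 126 reads a library, summed over the sites. It measured 79.5% and 79.4% in iPSCs, 10.5% and 21.4% at D12 and 95.5% and 85.7% at D0. D12 differed from D0 by -74.6 ± 7.3 points (adjusted p = 1.4e-05), iPSCs from D12 by 63.4 ± 5.5 (adjusted p = 9.46e-05) and iPSCs from D0 by -11.2 ± 4.9 (adjusted p = 0.311). The CpG-richest Dnmt1 tile, chr9:20833001-20834000, held 15 listed CpGs but 3 common sites and 46 to 130 reads a library, summed over the sites. It measured 58.7% and 61.9% in iPSCs, 19.2% and 27.8% at D12 and 56.9% and 50.8% at D0, and no difference from D0 was called in iPSCs (6.47 ± 3.5 points, adjusted p = 0.704). The median over the 5 tiles was 55.5 points for iPSCs from D12 and -56.2 points for D12 from D0. None of the tested tiles holds a placed Dnmt1 start.

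Dnmt3b combined a CpG-rich stretch of low methylation with a methylated tile farther into its window. The adjoining tiles chr2:153491001-153492000 and chr2:153492001-153493000, with 17 and 19 listed CpGs, lay between 0.279% and 13.7% in all 16 libraries over their 7 and 5 common sites. Over the 14 sites of the second tile shared by the D12 and D0 libraries the level was higher, at 9.35% and 15.1% at D12 and 18.3% and 26.3% at D0 (difference -10.1 points, adjusted p = 0.0739). On its common sites the second tile measured 8.26% and 3.57% in iPSCs, 2.07% and 1.69% at D12 and 3.10% and 10.4% at D0, and neither tile was called among iPSCs, D12 and D0 (adjusted p between 0.0594 and 1.0). By contrast chr2:153520001-153521000 measured 83.1% and 84.9% in iPSCs, 47.3% and 40.8% at D12 and 92.1% and 90.8% at D0. It differed by -47.4 ± 3.3 points between D12 and D0 (adjusted p = 1.78e-06), by 40 ± 3.3 between iPSCs and D12 (adjusted p = 2.19e-05) and by -7.44 ± 1.1 between iPSCs and D0 (adjusted p = 0.092). A tile beyond the low stretch, chr2:153495001-153496000, had too few common sites for the main test. Over the 9 sites shared by the iPSC and D0 libraries it measured 49.1% and 48.9% in iPSCs and 66.0% and 65.9% at D0, a called difference of -17.0 points (adjusted p = 0.0345). It was chosen after its values were seen.

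Dnmt3l had 2 tested tiles side by side, and 1 of them was called lower at D12 than at D0 and higher in iPSCs than at D12. The tile chr10:77878001-77879000 measured 47.2% and 57.8% in iPSCs, 23.4% and 27.2% at D12 and 61.3% and 65% at D0. It was lower at D12 by a difference of -37.9 ± 2.7 points (adjusted p = 0.000348) and higher in iPSCs than at D12 by 27.3 ± 5.6 (adjusted p = 0.00364). iPSCs stood -10.6 ± 5.6 points from D0 (adjusted p = 0.441). The higher level in iPSCs than at D12 was not seen on both strands. The 5 sites of strand R, pooled, measured 51.7% and 65.2% in iPSCs, 14.0% and 14.4% at D12 and 57.7% and 64.1% at D0. The 3 sites of strand F, with 10 to 26 reads each, measured 28.6% and 29.4% in iPSCs, 40% and 50.0% at D12 and 80.4% and 71.9% at D0, so iPSCs lay below D12 there. The strands were not tested apart. Its neighbour chr10:77879001-77880000, with 33 listed CpGs the richest of the 5 windows, measured 15.5% and 28.3% in iPSCs, 32.1% and 11.6% at D12 and 38.4% and 15.7% at D0. Replicates of D12 and of D0 there differed by more than these group means did, and none of the 3 comparisons was called (adjusted p between 0.616 and 0.937).

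Between D12 and D0 as a whole, 22 of the 29 tiles were called lower, where 82.7% of all tested tiles were, and 1 higher. They were 12 of 14 for Tet1, 3 of 5 for Uhrf1, 5 of 5 for Dnmt1, 1 of 3 for Dnmt3b and 1 of 2 for Dnmt3l. The median difference was -40.8 points, beside -45.9 over all tested tiles. Between iPSCs and D12, 18 of 29 were called higher, where 79.8% of all tested tiles were, with 8 of 14 for Tet1, 3 of 5 for Uhrf1, 5 of 5 for Dnmt1, 1 of 3 for Dnmt3b and 1 of 2 for Dnmt3l. The median was 29.4 points, beside 43.7 over all tested tiles. The comparisons share groups, so these counts are not independent of each other.

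The loss at the 5 loci ran with the days of treatment. D2 and D4 had no tile called in edgeR's fit, where 0.0488% and 0.0774% of all tested tiles were called lower and 0.0% and 0.00424% higher. In that fit 4 and 3 of the 29 had an unadjusted p under 0.05, and the share of all tested tiles under it was not computed. The quasi-binomial model called 0 at D2 and D4 as well. Of all tested tiles it called 0.0901% and 0.266% lower and 0.0% and 0.0117% higher. At D6, 10 tiles were called lower (21.4% of all tested tiles, and 0.106% higher), 4 of them in Tet1, 2 each in Dnmt1 and Uhrf1 and 1 each in Dnmt3b and Dnmt3l. The D6 count was 4 without D6 replicate 1, 2 without D6 replicate 2, 1 without D0 replicate 1 and 0 without D0 replicate 2, while the share of all tested tiles was 5.83%, 7.91%, 2.58% and 2.47% in the same fits, in that order. At D8, 20 were called lower and 1 higher (72.3% and 0.551% of all tested tiles), the last being the Tet1 tile at 0.6 kb, 10.4 ± 1.6 points over D0 (adjusted p = 0.00352) and not called without D8 replicate 2. At D10, 23 were called lower and none higher (81.6% and 0.202%). The median difference over the 29 tiles was -1.81 points at D2, -0.935 at D4, -10.5 at D6, -22.2 at D8 and -33.2 at D10, beside -2.2, -1.09, -9.86, -24.7 and -34.5 over all tested tiles.

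At some CpGs of these loci the level depended on the strand. Among CpGs with both strands common to all 16 libraries, 12 of 86 in the 5 windows differed by 40 points or more between strands on average, against 19.6% of 252823 in the whole series. At the Tet1 CpG at chr10:62726734, in the tile 3.4 kb upstream of the start, strand F measured 27.2% and 39.5% in iPSCs and 77.8% and 82.7% at D0, and strand R measured 5.26% and 3.92% in iPSCs and 8.36% and 5.63% at D0. What separates the strands there was not tested. Leaving out the lower strand at such CpGs touched 7 of the 29 tiles and changed the sign of no difference among iPSCs, D12 and D0. The Tet1 tile 3.4 kb upstream then differed by -49.5 points between iPSCs and D0. The largest shifts were at the Tet1 tile 18 kb upstream, where 2 of 4 sites dropped out: D12 then differed from D0 by -66.8 points instead of -35.6, and iPSCs from D12 by 56.5 points instead of 30.7. The median over the 29 tiles became -47.4 points for D12 from D0, -8.13 for iPSCs from D0 and 29.4 for iPSCs from D12.

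Other genes of the pathway could be followed at their promoters where these could be placed, which was the case for 7 of 22 on the list. Smug1 and Gadd45b, a uracil glycosylase of base excision repair and a stress gene tied to demethylation, were low in iPSCs, at D12 and at D0. At D6 the Smug1 promoter measured 7.07% and 12.7%. Smug1 measured 2.06% and 4.46% in iPSCs, 4.14% and 6.94% at D12 and 1.94% and 0.820% at D0, and Gadd45b lay between 0.244% and 2.83% in these groups. Mbd4, a glycosylase that repairs mismatches at methylated CpGs, measured 0.0% and 0.588% in iPSCs, 32.9% and 19.5% at D12 and 4.53% and 5.18% at D0. Its D12 libraries lay above those of both other groups over the sites each library lists, but not over sites with at least 20 reads, where D12 measured 30.1% and 5.03% and D0 7.74% and 0.0%. Gadd45a measured 4.75% and 4.71% in iPSCs, 11.2% and 18.2% at D12 and 11.4% and 4.38% at D0. The promoters of Uhrf2, Mbd3 and Setdb1 were listed in 6, 3 and 6 libraries and are not compared.

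As a check of the labels, promoters of 26 marker genes of pluripotent cells, fibroblasts and other lineages were looked for, and 6 could be placed. At the Pou5f1 promoter, the gene of Oct4, pooled reads gave 46.9% and 35.5% over 2 and 3 sites in iPSCs and 50.5% over 12 sites in D0 replicate 1, with none listed in D0 replicate 2. The reporter's own Pou5f1 sequence cannot be told apart from the gene's. The fibroblast collagen gene Col1a2 measured 1.99% and 3.32% in iPSCs and 24.1% and 1.27% at D0. At Esrrb and Krt18 the iPSC and D0 libraries overlapped, at Tdgf1 they measured 16.1% and 7.06% in iPSCs and 18.6% and 21.4% at D0, and Twist2 had no site listed in iPSCs. Cell identity is therefore taken from the labels.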

How the data were processed

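Genomic DNA of 16 libraries was cut with MspI, end-filled and A-tailed, treated with bisulfite, given 15 cycles of PCR and sequenced in 150 bp reads, per the labels' protocols. The authors used fastp 0.20.1, Bismark 0.23.0, Bowtie2 and methylKit on build GRCm39, per the submitters' processing notes. The deposited files give, per CpG site and strand, the coverage as a count of reads and the methylated and unmethylated calls as a percent of it. No listed site had under 10 reads, as deposited, and all percents came out as whole reads within the rounding of the printed percent. Median coverage was 18 to 27 reads a site. Intervals over reads were not used, since PCR copies are not independent molecules.

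Methylated and unmethylated counts were summed over the common sites of each 1-kb tile and fitted with edgeR 4.0.16 (R 4.3.3), quasi-likelihood test, all 8 groups and a library term in 1 fit, tested on simulated data first, with Benjamini-Hochberg adjustment over 94337 tiles. A level is the methylated share of all reads pooled over the sites, in percent, so deeply read sites weigh more. Reads of a tile are summed over its sites, so a read that covers several sites is counted at each. A difference is between group means of these levels, with its SE over libraries. Other steps used Python 3.11.15.

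Members and lists were chosen with earlier results of these data known. Named per gene were the tile with most listed CpGs and, in each comparison among iPSCs, D12 and D0, the largest called difference in each direction, or the largest difference where none was called. All other tiles named, among them the rest of those called between iPSCs and D0, were chosen after their values were seen. Promoters were at first placed on 5 or more CpGs, and a stricter rule of 7 with a lead of 5 was set once some placements fell outside their windows. Alternatives covered the model, the coverage minimum, the minimum difference, the sites and groups in the fit, merged strands, tile filters, a replicate block and each library left out. Leaving out the lower strand at CpGs whose strands differ was chosen after seeing the data. Strain variants at CpGs were not examined.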

Additional observations from a re-analysis of the deposited data

How the results depend on the processing

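With 20 reads per site 14 tiles could be tested, and the lower calls were 11 for D12, 6 for D6, 11 for D8 and 12 for D10 against D0, with 10 higher for iPSCs against D12 and 0 higher for D8; of all tiles, 81.9%, 31.3%, 75.7% and 81.0% were lower, and 79.0% and 0.324% higher. With a minimum difference of 25 points, 4 tiles were lower in iPSCs than at D0 and 0 at D6, and 0 were higher at D8 or D12 than at D0 or lower in iPSCs than at D12. The share of all tiles at that minimum was not computed, so these counts have no background beside them. Fits of the sites and libraries of the compared groups alone gave 12 lower of 38 for iPSCs, 34 of 44 for D12, 38 of 44 for D10 and 0 of 41 for D6 against D0, where the shares of all tiles in these fits were 9.57%, 78.6%, 79.8% and 0.0%. Leaving out 1 library at a time gave 5 to 6 lower for iPSCs against D0 (5.92% to 6.43% of all tiles), 0 to 4 lower at D6 (2.47% to 7.91%), 0 to 1 higher at D8, 1 to 2 higher at D12 (2 without D12 replicate 2 or D0 replicate 2) and 0 to 2 lower for iPSCs against D12. In the same fits, 0.42% to 0.658% of all tiles were higher at D8 than at D0, and 0.563% to 0.641% higher at D12. Between iPSCs and D12, 1.26% to 1.4% of all tiles were lower in iPSCs. With 1 library left in a group, it is assumed to vary like the others. The cause of these moves was not tested, apart from the fewer tiles. No pairing of the libraries by replicate number was seen: deviations of same-numbered libraries were correlated at -0.0144 to 0.00778 over 28 pairs of groups. Such correlations can miss a shared source hidden by read sampling, so they do not show that the libraries were unpaired. The replicate block moved no count by over 1.5 times except D6, to 5 lower, where 19.7% of all tiles were. Of the values of named tiles under these alternatives, 564 stayed on their side of the call, 3 gained it, 15 lost it and 0 changed sign past it. The looser rule placed 5 promoters of these loci, 3 of them outside their windows. Depth limits the tiles with 3 common sites, some with 32 reads in a library when summed over the sites.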
